A study of Arabidopsis thaliana with 44 samples.

Results

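In dark-grown Arabidopsis seedlings, 60 of the 34133 loci of the deposited expression table were at or near 0 in every ground group and clearly present in every flight group. Values are FPKM, which count fragments relative to the length of the transcript and the size of the library, so levels can be set beside each other per length. The 60 genes were chosen by their measured levels. The mean of the 4 flight libraries was at least 5 FPKM, and the mean of the 4 ground libraries was below 1 FPKM, in each of 5 genotypes. Loci of the plastid and mitochondrial genomes and a block of 9 loci on chromosome 4, from AT4G22460 to AT4G22520, were kept out by the same rule, and 4 of those 9 loci met the thresholds. Because flight and ground levels made the choice, every difference between flight and ground of the 60 genes is given as a description, with no test. The tests given concern another contrast, which is how the genes differed between genotypes within flight. They are not fully independent of the choice, because the flight minimum held in each genotype and a gene below 5 FPKM in any mutant could not be among the 60. Of the loci that met both thresholds in all genotypes but 1, 12 failed in bzip28, all by their flight level. Each gene is therefore tested singly, and counts and medians over the 60 genes between genotypes are descriptions.

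Whole seedlings were grown for 14 days in closed, foil-wrapped plates with 0.5 percent sucrose, aboard the International Space Station or in the station environment simulator on the ground with a 2-day delay, and then fixed. The genotypes were WT (Col-0), bzip28-2, bzip60-2, the double mutant bzip28-2 bzip60-1 and the double mutant ire1a-4 ire1b-2, all in Col-0, below bzip28, bzip60, bzip28bzip60 and ire1aire1b. Each of the 10 groups had 4 libraries. Every plate held 70 to 80 seeds, so a library pools many seedlings, and each mutant genotype is 1 allele or 1 allele pair. Flight and ground were each run once, so the spread between libraries does not cover differences between runs.

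Glucosinolates are sulfur-containing defence compounds of the cabbage family. The aliphatic ones are made from methionine, whose side chain is lengthened in a cycle of transamination, condensation, isomerisation and decarboxylation, before cytochromes P450 of the CYP79F and CYP83A families and a glutathione transferase build the core structure. The transcription factor MYB28 is a main activator of this pathway, and when tissue is broken myrosinases split the stored compounds into isothiocyanates or nitriles. bZIP28, bZIP60 and the kinase and ribonuclease IRE1 are sensors and transducers of the unfolded protein response, by which a cell answers stress in its endoplasmic reticulum.

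By function, 10 of the 60 genes belonged to aliphatic glucosinolate synthesis and 1, ESM1, to glucosinolate breakdown. Another 9 were genes of defence or other specialised metabolism, 8 of the cell wall, 4 of the glutaredoxin and thioredoxin superfamily, 4 transcription factors, 3 SAUR genes, 3 transporters and 2 genes of plastid carbon uptake, and 16 had other or unclear functions. These groups were formed after the 60 genes were known. The annotation placed 16 of the genes on chromosome 1, 7 on chromosome 2, 14 on chromosome 3, 11 on chromosome 4 and 12 on chromosome 5.

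The upstream sequences of 8 of the genes are shown because they stand next to the clearest joint patterns: the regulator MYB28 and 4 enzyme genes of the glucosinolate pathway, and 3 neighbouring glutaredoxin-type genes on chromosome 4. Each is the 250 bases before the annotated start of the gene, 5′ to 3′ on the strand of the gene, from the RefSeq assembly TAIR10.1. Capitals mark TATAAA on either strand. The windows are chr5:24691188-24691437 (minus strand), chr3:6849583-6849832 (minus), chr5:7702791-7703040 (plus), chr1:5604794-5605043 (plus), chr4:7992430-7992679 (minus), chr4:8931367-8931616 (plus), chr4:8934046-8934295 (plus) and chr4:8937108-8937357 (plus).
MYB28: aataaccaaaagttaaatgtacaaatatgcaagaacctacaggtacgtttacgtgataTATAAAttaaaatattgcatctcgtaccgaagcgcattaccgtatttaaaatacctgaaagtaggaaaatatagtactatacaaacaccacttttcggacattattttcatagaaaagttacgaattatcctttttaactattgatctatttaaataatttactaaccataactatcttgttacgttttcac
BCAT4: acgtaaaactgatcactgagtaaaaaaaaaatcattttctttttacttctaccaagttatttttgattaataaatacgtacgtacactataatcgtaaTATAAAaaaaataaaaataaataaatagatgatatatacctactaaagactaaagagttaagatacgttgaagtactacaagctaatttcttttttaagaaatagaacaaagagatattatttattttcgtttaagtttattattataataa
MAM1: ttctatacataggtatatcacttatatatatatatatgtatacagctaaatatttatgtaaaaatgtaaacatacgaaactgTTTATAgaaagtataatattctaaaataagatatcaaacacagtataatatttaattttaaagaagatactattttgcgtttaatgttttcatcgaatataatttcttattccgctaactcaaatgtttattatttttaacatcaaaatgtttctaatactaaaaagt
CYP79F2: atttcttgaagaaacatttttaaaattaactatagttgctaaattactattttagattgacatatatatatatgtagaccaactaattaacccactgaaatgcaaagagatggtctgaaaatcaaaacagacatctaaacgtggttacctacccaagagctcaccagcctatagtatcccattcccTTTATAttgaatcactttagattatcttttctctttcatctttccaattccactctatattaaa
CYP83A1: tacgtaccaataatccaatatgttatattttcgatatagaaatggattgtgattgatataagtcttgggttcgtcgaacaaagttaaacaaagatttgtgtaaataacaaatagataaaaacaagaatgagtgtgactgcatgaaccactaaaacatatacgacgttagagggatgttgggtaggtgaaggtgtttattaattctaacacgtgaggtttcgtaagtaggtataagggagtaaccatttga
AT4G15680: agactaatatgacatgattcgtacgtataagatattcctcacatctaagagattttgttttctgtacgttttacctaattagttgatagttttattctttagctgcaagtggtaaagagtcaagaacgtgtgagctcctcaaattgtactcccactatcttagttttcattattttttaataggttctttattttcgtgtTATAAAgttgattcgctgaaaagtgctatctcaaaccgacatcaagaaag
AT4G15690: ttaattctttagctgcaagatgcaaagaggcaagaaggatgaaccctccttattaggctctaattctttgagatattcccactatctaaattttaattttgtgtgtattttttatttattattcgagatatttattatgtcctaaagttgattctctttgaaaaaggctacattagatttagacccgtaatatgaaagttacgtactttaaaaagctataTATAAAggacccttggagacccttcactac
AT4G15700: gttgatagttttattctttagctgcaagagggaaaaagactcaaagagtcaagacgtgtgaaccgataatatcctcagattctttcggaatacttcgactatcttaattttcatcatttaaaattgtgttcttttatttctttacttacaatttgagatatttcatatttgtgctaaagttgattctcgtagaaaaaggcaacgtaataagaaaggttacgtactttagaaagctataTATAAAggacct

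TATAAA on either strand occurred in the 250-base window of 32 of the 60 genes, which is 53.3%, and in 46.4% of the 29289 windows of all annotated nuclear genes. It occurred in 9 of the 10 glucosinolate synthesis genes. Within 15 to 50 bases of the start, where a TATA box usually lies, it occurred in 2 of those 10, in 12 of the 60 and in 13.04% of all windows. The W-box core TTGAC was found in 28 of the 60 windows and in 44.7% of all, the G-box CACGTG in 5 and in 6.18%, the I-box GATAAG in 4 and in 12.5%, and the auxin response element TGTCTC in 7 and in 10.8%. The unfolded protein response element TGACGTGG was in 0 of the 60 windows and in 1.21% of all, and the endoplasmic reticulum stress response element, known as ERSE, was in 0 and in 0.652%. All were searched on both strands, matches of different motifs may overlap, and the counts say only which letters stand in the windows. The windows of AT4G15690 and AT4G15700 were 62.6% identical in a global alignment, and every other pair of the 8 was between 41.8% and 51.7% identical.

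All 60 genes had every one of the 20 flight libraries above every one of the 20 ground libraries, and 27.2% of the 19186 genes tested over all libraries were also separated in that direction. The rule used this contrast, so nothing is read from the count. The lowest value of any of the 60 genes in a flight library was 2.14 FPKM, and the highest in a ground library was 1.85 FPKM. For a single gene, the lowest flight library was between 1.98 and 92.2 times the highest ground library, with a median of 6.89. Of the 1200 ground values 145 were listed at 0, in 37 of the 60 genes, while no flight value was listed at 0. Of the 13827 loci whose mean over all libraries reached 5 FPKM, 263 had 1 or more values listed at 0. These can include loci silent in 1 condition. Whether a listed 0 is absence or a failed estimate was not tested.

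**Figure D1:**
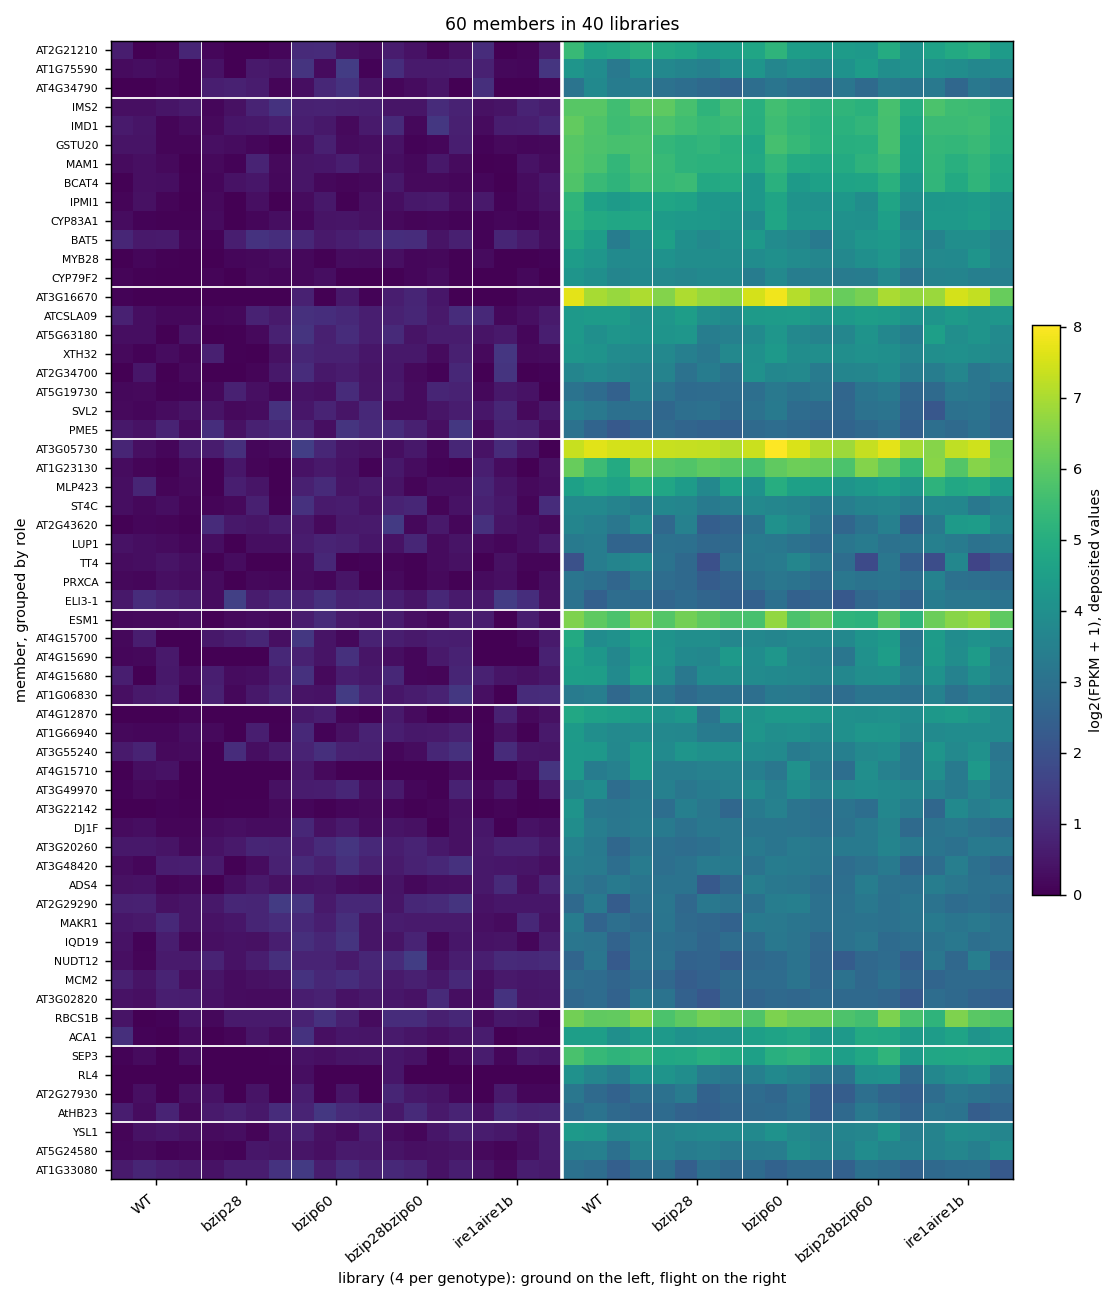
Deposited level of each of the 60 genes (vertical axis, grouped by function) in each of the 40 libraries (horizontal axis, 4 per genotype, ground on the left and flight on the right), as log2(FPKM + 1) in colour. All 60 genes are dark in the 20 ground libraries, with no value above 1.85 FPKM, and lighter in the 20 flight libraries, with no value below 2.14 FPKM.

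The mean over the 20 flight libraries ran from 5.48 to 158 FPKM, with a median of 11.8 FPKM. It was above 50 FPKM for 5 genes, between 20 and 50 for 11, between 10 and 20 for 20 and below 10 for 24. The median difference of log2(FPKM + 1) between flight and ground was 3.35, with a range of 1.99 to 6.75, and that of all genes with a flight mean of at least 1 FPKM was 0.76. A bulk library cannot tell fewer cells of a type from less RNA per cell. The scale of the libraries differed too. The single locus AT2G01021 took 36.1 to 89.9% of the summed FPKM of a ground library and 2.97 to 47.2% of a flight library, and FPKM are relative to the total. After rescaling each library by its median ratio over 14104 genes above 1 FPKM in all libraries, the median difference was 2.87 for the 60 genes and 0.12 for all. Under the rescaled values 37 of the 60 genes still met both thresholds.

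**Figure D2:**
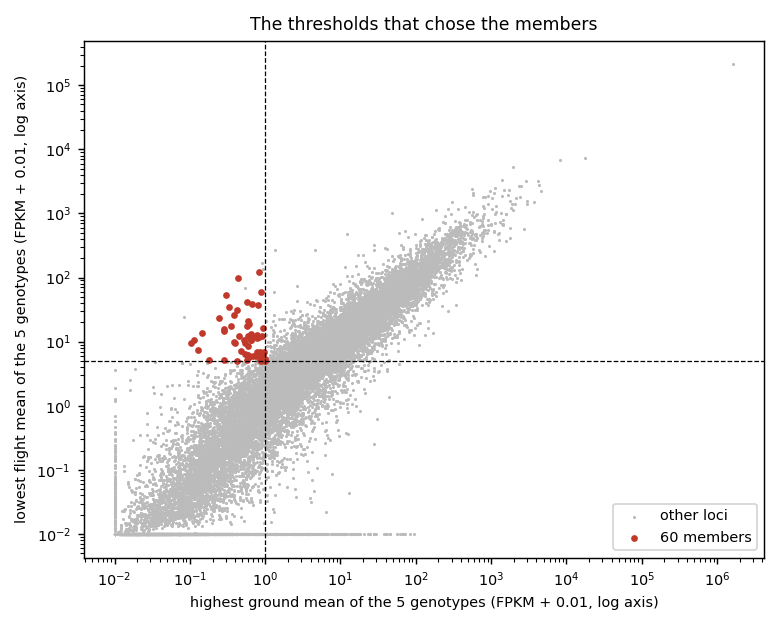
Lowest of the 5 flight group means (vertical, FPKM + 0.01, log axis) against the highest of the 5 ground group means (horizontal, FPKM + 0.01, log axis) for each locus above 0 in any group, with dashed lines at 5 and 1 FPKM. The 60 chosen genes (red) lie in the upper left corner at the edge of the main cloud; grey points inside that corner are loci the rule kept out by position.

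The choice depended on where the thresholds lay. With the same ground limit and a flight minimum of 10 FPKM 31 genes were left, and with a ground limit of 0.5 FPKM 20 were left. A ground limit of 2 FPKM gave 253 genes. Just inside the thresholds lay NUDT12, a nudix hydrolase, with a lowest flight mean of 5.02 FPKM and a highest ground mean of 0.873 FPKM, and MCM2, a subunit of the replicative helicase, with 5.07 and 0.982 FPKM. The homeobox gene AtHB23 had 5.16 and 0.987 FPKM, the PLATZ transcription factor gene AT2G27930 had 5.07 and 0.412 FPKM, and the pectin lyase-like gene PME5 had 5.09 and 0.853 FPKM. Just outside lay AT2G32880, of the TRAF-like family, with a highest ground mean of 1.004 FPKM in bzip60 beside a lowest flight mean of 12.8 FPKM. MCM3, another subunit of the helicase that holds MCM2, had a lowest flight mean of 4.97 FPKM and a highest ground mean of 0.878 FPKM. AT1G04425, AT3G17050.1 and LSH1 had lowest flight means of 4.96, 4.95 and 4.94 FPKM. The lists on the 2 sides of the thresholds therefore hold genes with nearly the same levels.

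The genotype that most often kept a gene out was bzip60, on the ground. Taken 1 genotype at a time, both thresholds were met by 416 loci in WT, 382 in bzip28, 349 in ire1aire1b, 231 in bzip28bzip60 and 137 in bzip60. Of the 69 loci that met them in 4 genotypes but not in the fifth, 44 failed in bzip60, and 43 of these by their ground level. The 60 genes had their highest ground mean in bzip60 in 36 cases, in bzip28bzip60 in 13, in ire1aire1b in 7, in bzip28 in 3 and in WT in 1. The median ground mean was 0.195 FPKM in WT, 0.234 in bzip28, 0.368 in ire1aire1b, 0.407 in bzip28bzip60 and 0.575 in bzip60. After rescaling, the highest ground mean was in bzip60 for 12 genes, in bzip28 for 17, in ire1aire1b for 15, in bzip28bzip60 for 14 and in WT for 2. AT2G01021 took 36.1 to 66.9% of the bzip60 ground libraries and 54.6 to 89.9% of the other ground libraries. As deposited the group means are all under 1 FPKM by the rule, and the part of that share in them was not tested.

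**Figure D3:**
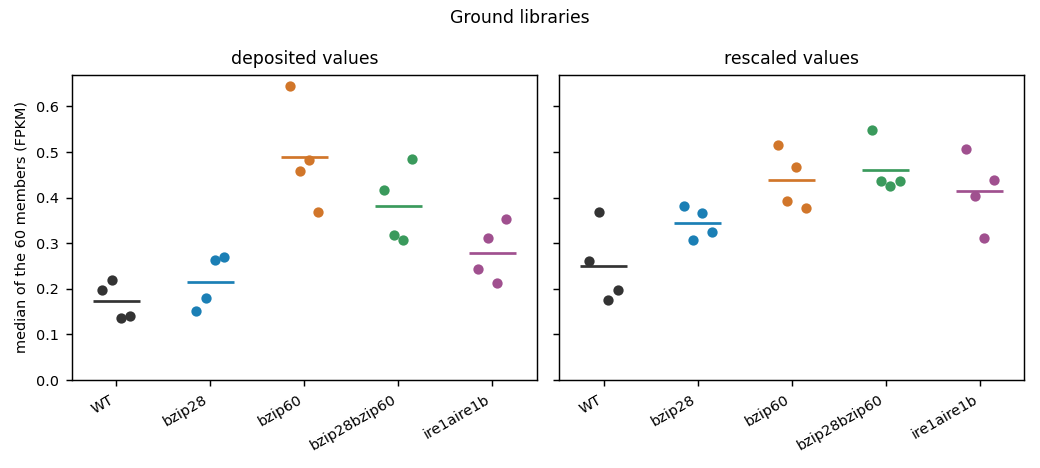
Median FPKM of the 60 genes in each ground library (points, 4 per genotype) with the mean of the 4 libraries (line), for the deposited values on the left and the rescaled values on the right. The bzip60 libraries lie between 0.368 and 0.645 FPKM and the others between 0.136 and 0.485 FPKM as deposited, and at 0.377 to 0.517 FPKM against 0.175 to 0.549 FPKM after rescaling.

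Sequencing lane, as the sample titles give it, and condition were partly mixed. Lane 1 held only flight libraries (11) and lane 3 only ground libraries (9), while lane 2 held 4 flight and 6 ground libraries and lane 4 held 5 of each. The median level of the 60 genes was 9.29 to 10.4 FPKM in the flight libraries of lane 2 and 0.197 to 0.645 FPKM in its ground libraries. In lane 4 it was 11.6 to 13.99 FPKM against 0.136 to 0.243 FPKM.

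The disrupted genes were checked as background to the genotype labels. In ire1aire1b the IRE1A transcript was at 0.4996 to 1.5003 FPKM, against 15.7 to 51.8 FPKM in the 32 libraries of the other genotypes, and IRE1B was at 1.29 to 5.699 against 3.401 to 11.6 FPKM. bZIP60 was at 11.3 to 17.3 FPKM in bzip60 and 7.399 to 18.4 FPKM in bzip28bzip60, against 21.04 to 54.4 FPKM in the genotypes where it is intact. bZIP28 was at 1.75 to 5.602 FPKM in bzip28bzip60, but at 25.1 to 129 FPKM in the libraries labelled bzip28, against 14.6 to 31.9 FPKM where it is intact. The transcript level therefore does not check the bzip28 label, bzip28 stands here for the libraries so labelled, and the FPKM per gene do not show which part of the transcript the reads come from.

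The aliphatic glucosinolate genes covered the regulator, the chain elongation cycle and the start of the core structure. Of 31 known genes of this pathway, a list written after the levels were seen and therefore given no test, 10 met the rule: 1 of 3 regulators, 6 of 10 genes of chain elongation, 3 of 10 of the core structure and 0 of 8 of side-chain modification. Of the 21 others, 11 had at least 5 FPKM in flight in every genotype but reached 1 FPKM on the ground in some genotype, and 10 were below 5 FPKM in flight in some genotype. Among these others, the side-chain genes GSL-OH and FMO GS-OX4 had a higher mean on the ground than in flight in every genotype. Group means of GSL-OH were 87.0 to 166 FPKM on the ground and 63.8 to 88.4 FPKM in flight. Those of FMO GS-OX4 were 6.63 to 10.6 and 3.57 to 5.07 FPKM. The regulator MYB28 had 11.1 to 20.8 FPKM in the 20 flight libraries, with a median of 14.1 FPKM, and 0 to 0.252 FPKM on the ground. Its relatives MYB29 and MYB76, which activate the same pathway, had flight group means of at most 0.0965 and 0.0820 FPKM. MYB28 was thus the 1 regulator of the 3 above 1 FPKM in flight.

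Chain elongation begins with BCAT4, the aminotransferase that converts methionine to its keto acid. In flight it had 54.9, 42.4, 35.8 and 45.01 FPKM in WT, 40.4, 43.05, 27.5 and 28.7 in bzip28, 18, 32.9, 19.9 and 22.5 in bzip60, 23.9, 24.9, 33.3 and 18.2 in bzip28bzip60 and 37.8, 28.1, 37.1 and 26.99 in ire1aire1b. On the ground it had 0.0332, 0.255, 0.216 and 0.032 FPKM in WT, 0.113, 0.306, 0.387 and 0.12 in bzip28, 0.367, 0.135, 0.0902 and 0.126 in bzip60, 0.42, 0.141, 0.158 and 0.0981 in bzip28bzip60 and 0.107, 0, 0.204 and 0.406 in ire1aire1b. The 4 bzip60 and the 4 bzip28bzip60 flight libraries were all below the 4 WT flight libraries, and those of bzip28 and ire1aire1b overlapped them. BAT5, a plastid carrier for the keto acids, had 8.78 to 27.6 FPKM in flight (median 14.6) and 0.0606 to 1.25 FPKM on the ground.

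MAM1 and IMS2 encode methylthioalkylmalate synthases, the condensing enzymes of the cycle, and stand next to each other on chromosome 5. MAM1 had 59.05, 51.8, 38.9 and 50.7 FPKM in WT, 41.2, 35.5, 33.9 and 34 in bzip28, 27.9, 39.1, 29.2 and 26.9 in bzip60, 28.8, 35.2, 42.1 and 23.6 in bzip28bzip60 and 38.3, 32.6, 37.9 and 29.1 in ire1aire1b in flight. Its ground values were 0.169, 0.248, 0.14 and 0 FPKM in WT, 0.149, 0.05, 0.757 and 0.158 in bzip28, 0.363, 0.385, 0.605 and 0.297 in bzip60, 0.228, 0.136, 0.42 and 0.177 in bzip28bzip60 and 0, 0.0256, 0.309 and 0.183 in ire1aire1b. WT held the 3 highest flight values of MAM1, and bzip28bzip60 the lowest. IMS2, also known as MAM3, had 60.3, 60.6, 45.8 and 60.98 FPKM in WT, 64.1, 50.8, 36.3 and 48.4 in bzip28, 32.05, 47.4, 40.4 and 35.6 in bzip60, 37.4, 33.9, 50.7 and 31 in bzip28bzip60 and 52.4, 44.9, 43.4 and 35.8 in ire1aire1b in flight. It had 0.254, 0.245, 0.369 and 0.481 FPKM in WT, 0.0974, 0.294, 0.746 and 1.28 in bzip28, 0.684, 0.715, 0.626 and 0.592 in bzip60, 0.373, 0.382, 0.961 and 0.721 in bzip28bzip60 and 0.296, 0.348, 0.732 and 0.547 in ire1aire1b on the ground. The 2 genes are close relatives, so reads could be shared between them, and their values are uncertain to that extent. The flight values of IMS2 in every mutant overlapped those of WT.

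The cycle ends with isomerisation and oxidative decarboxylation. IMD1, the decarboxylating dehydrogenase, had 67.3, 55.4, 45.1 and 48.95 FPKM in WT, 52.4, 46.5, 40.2 and 42.8 in bzip28, 31.3, 45.2, 37.95 and 33.2 in bzip60, 33.9, 37.5, 49.8 and 26.6 in bzip28bzip60 and 43.1, 42.8, 44.8 and 33.9 in ire1aire1b in flight. Ground values of IMD1 were 0.481, 0.368, 0.0782 and 0.173 FPKM in WT, 0.143, 0.407, 0.438 and 0.592 in bzip28, 0.58, 0.421, 0.154 and 0.481 in bzip60, 0.956, 0.136, 1.45 and 0.615 in bzip28bzip60 and 0.171, 0.561, 0.585 and 0.853 in ire1aire1b. The ire1aire1b flight libraries lay just below the WT libraries and the other mutants overlapped WT. IPMI1, a small subunit of the isomerase, had 14.1 to 37.4 FPKM in flight (median 18.2) and 0 to 0.509 FPKM on the ground. IPMI2, another small subunit, missed the rule through a single group, with ground means of 0.636 to 1.26 FPKM, highest in bzip60, and flight means of 21.1 to 29.7 FPKM.

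In the core pathway CYP79F2, which turns elongated methionine into an aldoxime, had 7.58 to 17.03 FPKM in flight (median 11.5) and 0 to 0.235 FPKM on the ground. Its near-identical neighbour CYP79F1 had a flight mean of 7.05 FPKM in WT but of only 2.47 to 2.81 FPKM in the 4 mutants, and these mutant means under the flight minimum kept it out of the 60. Its ground means were at most 0.00621 FPKM. How the counting split reads between them is unknown. CYP83A1 oxidises the aldoximes. It had 34.3, 28.4, 25.7 and 26.8 FPKM in WT, 20.1, 18.8, 18.5 and 16.7 in bzip28, 13.9, 25.1, 17.1 and 17 in bzip60, 15.6, 15.4, 21.8 and 11.1 in bzip28bzip60 and 19.5, 19.3, 20.9 and 16.2 in ire1aire1b in flight. Its ground values were 0.201, 0.0569, 0.0388 and 0.042 FPKM in WT, 0.166, 0, 0.104 and 0.22 in bzip28, 0.102, 0.343, 0.367 and 0.288 in bzip60, 0.155, 0.0703, 0.103 and 0.045 in bzip28bzip60 and 0.0447, 0.104, 0.0635 and 0.17 in ire1aire1b. Every mutant flight library was below all 4 WT flight libraries. GSTU20, a glutathione transferase placed in the same pathway, had 60.1, 54.4, 49.99 and 52.2 FPKM in WT, 38.4, 35.7, 37.6 and 33.4 in bzip28, 25.8, 49.7, 40.2 and 33.7 in bzip60, 31.6, 32.1, 49.5 and 23.9 in bzip28bzip60 and 39.5, 38.5, 41.98 and 32.8 in ire1aire1b in flight. On the ground GSTU20 had 0.337, 0.353, 0.0843 and 0.089 FPKM in WT, 0.264, 0.21, 0.111 and 0 in bzip28, 0.253, 0.641, 0.169 and 0.235 in bzip60, 0.323, 0.0498, 0.0911 and 0.595 in bzip28bzip60 and 0.0504, 0.163, 0.094 and 0.136 in ire1aire1b. Again every mutant flight library was below the WT libraries.

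ESM1 encodes a protein that favours isothiocyanates over nitriles when glucosinolates are split. It had 87.1, 65.1, 53.2 and 92.2 FPKM in WT, 58.2, 79.2, 64.1 and 54.3 in bzip28, 50.1, 104, 52.4 and 66.9 in bzip60, 36.1, 34.7, 61.5 and 35.5 in bzip28bzip60 and 73.6, 96.2, 110.0 and 65.1 in ire1aire1b in flight. On the ground it had 0.12, 0.157, 0.14 and 0.234 FPKM in WT, 0.0318, 0.163, 0.211 and 0.116 in bzip28, 0.512, 0.955, 0.447 and 0.345 in bzip60, 0.536, 0.262, 0.135 and 0.532 in bzip28bzip60 and 0.515, 0, 0.567 and 0.172 in ire1aire1b. Among the flight libraries 3 of the 4 of bzip28bzip60 held the lowest values, and the other mutants overlapped WT. Of the 12 other genes on the list for glucosinolate breakdown, 10 were tested for flight against ground over the mean of the 5 genotypes with limma: 8 were higher and 1 lower as deposited, and 5 and 2 of 9 after rescaling. The share of all genes called higher was 84.6% as deposited and 46.3% after rescaling, and the share called lower was 5.57% and 33.8%. The myrosinase gene TGG1 was at 72.9 to 163 FPKM in flight and 4.78 to 69.7 FPKM on the ground.

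**Figure D4:**
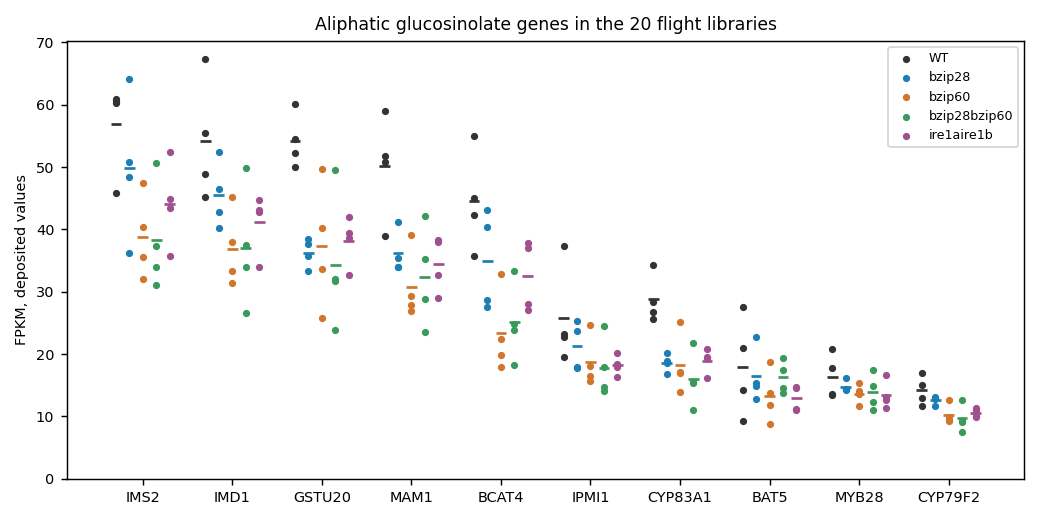
FPKM (vertical axis, deposited values) of the 10 aliphatic glucosinolate synthesis genes in the 20 flight libraries, with 4 points per genotype and a line at the group mean. The WT mean is the highest of the 5 for all 10 genes, and for CYP83A1 and GSTU20 no mutant library reaches the lowest WT library.

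The gene with the highest flight level of the 60 was AT3G05730, which encodes a defensin-like protein, a small cysteine-rich peptide of the kind that acts against microbes. It had 161, 201, 182 and 171 FPKM in WT, 161, 157, 156 and 136 in bzip28, 166, 259, 189 and 133 in bzip60, 115, 159.8, 204 and 124 in bzip28bzip60 and 93.7, 150.3, 174 and 74.1 in ire1aire1b in flight. On the ground it had 0.796, 0.256, 0.0934 and 0.572 FPKM in WT, 0.523, 1.11, 0.114 and 0.184 in bzip28, 1.8, 0.822, 0.368 and 0.276 in bzip60, 0.225, 0.428, 0.0922 and 0.822 in bzip28bzip60 and 0.307, 0.984, 0.393 and 0 in ire1aire1b. The flight libraries of the genotypes overlapped, and the lowest was in ire1aire1b. Of 11 plant defensin genes on a separate list, 5 had enough signal to be tested. As deposited 4 were higher in flight and 1 lower, and after rescaling 3 and 1. Of all genes, 84.6% were called higher and 5.57% lower as deposited, and 46.3% and 33.8% after rescaling. PDF2.5 had 35.3 to 89.5 FPKM in flight and 0 to 22.2 FPKM on the ground, and PDF1.4 had 8.97 to 31.2 against 20.7 to 66.2 FPKM. None of the 3 thionin genes on the thionin list reached 1 FPKM in any library, and none was tested.

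AT1G23130 is annotated in a polyketide cyclase and lipid transport family. It had 70.4, 43.8, 28.9 and 72.5 FPKM in WT, 60.3, 56.9, 64.9 and 59.6 in bzip28, 49.4, 66.2, 74.97 and 70.1 in bzip60, 52.4, 91.8, 64.1 and 38.7 in bzip28bzip60 and 96.6, 57.1, 93.9 and 77.2 in ire1aire1b in flight. Its ground values were 0.19, 0.075, 0 and 0.166 FPKM in WT, 0, 0.409, 0.0709 and 0 in bzip28, 0.318, 0.462, 0.322 and 0.0635 in bzip60, 0.416, 0.194, 0.064 and 0 in bzip28bzip60 and 0.587, 0.198, 0 and 0.287 in ire1aire1b. It was the 1 gene among the 12 with the highest flight levels whose flight mean was lowest in WT, with 2 WT libraries below all others except 1 of bzip28bzip60. MLP423, of the major latex protein family, had 12.3 to 35.5 FPKM in flight and 0 to 0.96 FPKM on the ground. The other genes of defence and specialised metabolism had lower flight levels. Chalcone synthase (TT4), the entry enzyme of flavonoid synthesis, had 2.14 to 12.98 FPKM, lupeol synthase 1 (LUP1), a triterpene cyclase, had 5.05 to 10.2 FPKM, and the chitinase family gene AT2G43620 had 4.31 to 20.5 FPKM. TT4 gave the lowest flight value of the 60 genes.

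RBCS1B encodes a small subunit of Rubisco, the enzyme that fixes carbon dioxide. It had 78.8, 65.4, 67.9 and 92.2 FPKM in WT, 53.1, 64.4, 79.8 and 71.5 in bzip28, 55.6, 86.1, 74.3 and 74.1 in bzip60, 53.6, 48.2, 85.98 and 51.8 in bzip28bzip60 and 36.6, 87.97, 61.5 and 55.1 in ire1aire1b in flight. It had 0.338, 0, 0.0499 and 0.386 FPKM in WT, 0.118, 0.482, 0.482 and 0.492 in bzip28, 0.718, 1.23, 0.617 and 0.169 in bzip60, 1.01, 1.03, 0.614 and 0.874 in bzip28bzip60 and 0.166, 0.433, 0.374 and 0.0543 in ire1aire1b on the ground. The genotypes overlapped in flight. The 3 other small subunit genes are nearly identical in sequence, so their split is uncertain, and all 3 were far above 1 FPKM on the ground. RBCS1A had 92.5 to 421 FPKM on the ground and 843 to 1773 FPKM in flight, RBCS2B had 18.5 to 90.9 and 288 to 663 FPKM, and RBCS3B had 16.9 to 76.2 and 143.5 to 308 FPKM. All 3 were called higher in flight over the mean of the 5 genotypes, by log2 2.54 ± 0.13 (SE), 3.38 ± 0.13 and 2.398 ± 0.12 as deposited and 1.75 ± 0.11, 2.60 ± 0.11 and 1.62 ± 0.10 after rescaling. Of all genes, 84.6% were called higher as deposited and 46.3% after rescaling. The carbonic anhydrase gene ACA1 had 15 to 28.03 FPKM in flight and 0 to 1.26 FPKM on the ground.

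Of the cell wall genes, AT3G16670, of the pollen Ole e 1 allergen and extensin family, had the highest flight level. It had 205, 124, 108 and 130.4 FPKM in WT, 92.3, 129.9, 109 and 99.1 in bzip28, 182, 228, 139.9 and 96.7 in bzip60, 70.5, 82.4, 127 and 108 in bzip28bzip60 and 111, 182, 156 and 70.1 in ire1aire1b in flight. On the ground 11 of its 20 values were listed at 0, with 0.0658, 0, 0 and 0 FPKM in WT, 0, 0, 0 and 0 in bzip28, 0.66, 0, 0.434 and 0.0613 in bzip60, 0.556, 0.76, 0.392 and 0 in bzip28bzip60 and 0, 0, 0.129 and 0.126 in ire1aire1b. The flight libraries of all genotypes overlapped. AT2G34700 carries the same family name and had 11.5, 13.5, 11.6 and 10.4 FPKM in WT, 11, 7.1, 9.34 and 7.19 in bzip28, 15.8, 12.1, 12.8 and 9.15 in bzip60, 11.5, 11.9, 13.9 and 9.49 in bzip28bzip60 and 9.47, 11.8, 7.94 and 9.3 in ire1aire1b in flight and 0 to 1.3 FPKM on the ground. AT3G16670 was above AT2G34700 in every flight library.

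The pectin lyase-like family, whose proteins act on the pectin of the wall, held 3 of the 60 genes. AT5G63180 had 19.3, 14.99, 17.4 and 16.02 FPKM in WT, 16.8, 17.7, 9.53 and 10.3 in bzip28, 13.3, 17.6, 12.5 and 11.1 in bzip60, 11.7, 16.3, 12.1 and 9.32 in bzip28bzip60 and 22.2, 14.4, 16.7 and 13.2 in ire1aire1b in flight and 0 to 1.3 FPKM on the ground. For AT5G19730 the flight values were 7.39, 6.16, 4.64 and 10.1 FPKM in WT, 7.45, 5.93, 6.2 and 6.3 in bzip28, 6.58, 8.47, 7.35 and 8.12 in bzip60, 5.26, 7.62, 8.82 and 5.46 in bzip28bzip60 and 5.86, 8.42, 7.91 and 6.44 in ire1aire1b, and the ground values were 0 to 0.988 FPKM. PME5, which has a pectin methylesterase name, had 7.09, 4.95, 3.74 and 4.74 FPKM in WT, 5.88, 5.12, 4.72 and 4.63 in bzip28, 5.83, 6.24, 5.65 and 4.98 in bzip60, 4.94, 5.71, 6.57 and 4.44 in bzip28bzip60 and 6.7, 5.89, 6.9 and 5.54 in ire1aire1b in flight and 0.183 to 1.47 FPKM on the ground. In all 3 the genotypes overlapped in flight. Other wall genes were XTH32, a xyloglucan-remodelling enzyme (8.32 to 19.1 FPKM in flight), and ATCSLA09, a mannan synthase (13.03 to 21.2 FPKM).

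Among the transcription factors SEP3 stood highest, a MADS-box gene known for its part in floral organ identity. It had 51.7, 40.7, 36.1 and 39.4 FPKM in WT, 26.7, 27.6, 31.3 and 28.1 in bzip28, 22.4, 32.5, 35.7 and 28.5 in bzip60, 21.8, 26.4, 36.7 and 19.5 in bzip28bzip60 and 25.7, 26.4, 27.5 and 25.5 in ire1aire1b in flight. Ground values of SEP3 were 0.047, 0.187, 0 and 0.227 FPKM in WT, 0, 0, 0 and 0.0415 in bzip28, 0.319, 0.248, 0.343 and 0.358 in bzip60, 0.399, 0.318, 0 and 0.181 in bzip28bzip60 and 0.532, 0.11, 0.499 and 0.386 in ire1aire1b. The flight libraries of bzip28, bzip60 and ire1aire1b were all below the 4 WT libraries, and 1 library of bzip28bzip60 was not. RL4, of the RADIALIS-like group of MYB-related proteins, was listed at 0 in 18 of the 20 ground libraries and had 5.77 to 16.9 FPKM in flight. AT2G27930 and AtHB23, named above, had 4.16 to 9.13 and 4.17 to 8.44 FPKM in flight.

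SAUR genes are small, often intronless genes that respond quickly to auxin. AT2G21210 had 41.4, 25.2, 27.96 and 33.6 FPKM in WT, 27.4, 25.1, 20.8 and 21.6 in bzip28, 25.1, 36.4, 21.1 and 19.9 in bzip60, 20.2, 18.9, 29.8 and 16.4 in bzip28bzip60 and 23.2, 28.4, 31.7 and 20.3 in ire1aire1b in flight. It had 0.578, 0, 0.086 and 0.765 FPKM in WT, 0.0959, 0, 0 and 0.0911 in bzip28, 0.932, 0.976, 0.275 and 0.169 in bzip60, 0.521, 0.322, 0.0878 and 0.293 in bzip28bzip60 and 1.02, 0, 0.0907 and 0.515 in ire1aire1b on the ground. AT1G75590 had 17.1, 13.9, 8.53 and 13.8 FPKM in WT, 12.3, 11.3, 10.2 and 14.1 in bzip28, 17.3, 11.9, 14.3 and 12.5 in bzip60, 15.9, 20.5, 14.6 and 15.7 in bzip28bzip60 and 15.2, 14.2, 12.04 and 12.96 in ire1aire1b in flight and 0 to 1.7 FPKM on the ground. For AT4G34790 the flight libraries gave 7.48, 12.9, 9.35 and 9.53 FPKM in WT, 7.05, 6.41, 5.63 and 4.89 in bzip28, 6.41, 7.69, 6.43 and 5.73 in bzip60, 7.94, 5.91, 8.54 and 7.62 in bzip28bzip60 and 8.53, 5.42, 8.26 and 6.83 in ire1aire1b, and the ground libraries 0 to 1.26 FPKM. The bzip28 flight libraries of AT4G34790 were all below those of WT, and the other groups of the 3 genes overlapped WT.

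On chromosome 4, 4 of the 60 genes stood side by side between positions 8931617 and 8941406. Of these, 3 encode small redox proteins of the glutaredoxin kind, annotated in the thioredoxin superfamily, and the other a cystatin-like protein. Their close similarity makes the split of reads among the 3 uncertain. AT4G15680 had 21.6, 20.9, 13.4 and 23.6 FPKM in WT, 14.5, 8.26, 13.8 and 14.2 in bzip28, 13.5, 13.1, 12.1 and 11.1 in bzip60, 12.2, 14.6, 14.9 and 9.71 in bzip28bzip60 and 16.04, 10.7, 14.9 and 10.3 in ire1aire1b in flight and 0 to 1.2 FPKM on the ground. AT4G15690 had 22.9, 17.8, 12.2 and 20.6 FPKM in WT, 16.8, 12.9, 12.1 and 19.3 in bzip28, 13.95, 17.6, 11.7 and 10.3 in bzip60, 7.94, 15.7, 21.2 and 7.95 in bzip28bzip60 and 19.5, 14.4, 20.3 and 9.71 in ire1aire1b in flight, with 7 ground values listed at 0 and a highest of 1.15 FPKM. AT4G15700 had 28.3, 13.9, 15.6 and 23.6 FPKM in WT, 16.3, 14.7, 14.5 and 11.9 in bzip28, 12.4, 11.6, 12.8 and 12.3 in bzip60, 12.5, 16.6, 19.6 and 7.57 in bzip28bzip60 and 20.1, 13.9, 16.1 and 13.7 in ire1aire1b in flight and 0 to 1.45 FPKM on the ground, with the 4 bzip60 flight libraries below those of WT. The cystatin-like gene AT4G15710 had 18.9, 9.25, 10.6 and 17.8 FPKM in WT, 9.9, 9.72, 10.4 and 10.9 in bzip28, 10, 8.09, 15.6 and 8.44 in bzip60, 6.47, 14.5, 10.5 and 8.22 in bzip28bzip60 and 14.5, 8.78, 18.8 and 8.86 in ire1aire1b in flight, and 13 of its ground values were listed at 0, with a highest of 1.33 FPKM. In all 4 genes the WT flight libraries 1 and 4 held 2 of the 4 highest values. The next gene upstream, AT4G15670, was no member, with means of 8.15 FPKM over the flight libraries and 1.42 FPKM over the ground libraries.

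On chromosome 1, AT1G66940, annotated as a kinase-like protein, and SVL2, a relative of the wall-linked protein SHV3, were 3 loci apart. AT1G66940 had 19.8, 14.6, 12.6 and 13.7 FPKM in WT, 12.5, 12.2, 9.02 and 8.92 in bzip28, 17.01, 14.6, 15.2 and 13.01 in bzip60, 15.4, 17.5, 17.3 and 12.3 in bzip28bzip60 and 13.3, 13.96, 14.1 and 13.4 in ire1aire1b in flight and 0 to 0.89 FPKM on the ground. SVL2 had 10.1, 8.46, 6.76 and 6.94 FPKM in WT, 5.43, 6.59, 6.96 and 5.72 in bzip28, 7.07, 8.61, 6.13 and 5.67 in bzip60, 5.42, 7.1, 7.53 and 4.92 in bzip28bzip60 and 3.54, 7.02, 7.23 and 5.66 in ire1aire1b in flight and 0.0958 to 1.2 FPKM on the ground. The bzip28 flight libraries of AT1G66940 were all below those of WT. Beside the 60 genes, 75 directly flanking loci had a flight mean of at least 1 FPKM. Their median difference between flight and ground was log2 1.06 as deposited and 0.47 after rescaling. The median of all genes with such a flight mean was 0.76 and 0.12. Of the 75 loci, 13 had a ground mean below 1 FPKM, and the share among all such genes was not counted. Apart from the clusters named here, no 2 of the 60 genes were within 3 loci of each other.

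The transporter genes were YSL1, of a family that carries metal-nicotianamine complexes, with 9.86 to 18.9 FPKM in flight, AT5G24580, of a heavy metal transport family, with 6.74 to 14.3 FPKM, and AT1G33080, a MATE efflux family gene, with 3.72 to 6.96 FPKM. The 16 genes of other function had flight means between 5.48 and 17.6 FPKM and ground means between 0.0681 and 0.708 FPKM. Of the 60 genes 12 had no intron, which is 20.0%, against 15.8% of 18816 annotated genes expressed in flight. The median transcript length was 1509 bases, against 1680 bases for those genes.

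Few differences between genotypes within flight passed the test in the 60 genes. Those that passed on the deposited or the rescaled values were all lower in a mutant, and all but SEP3 concerned glucosinolate synthesis genes. Differences are of log2(FPKM + 1), mutant minus WT over 4 libraries each, tested with limma in the 20 flight libraries with Benjamini-Hochberg adjustment over 19682 genes, which include all 60. With an adjusted p below 0.05, 0 of the 60 genes were called in bzip28, bzip60 and ire1aire1b, and 1, CYP83A1, was called lower in bzip28bzip60. Of all genes, 0.0203% were called higher and 0.259% lower in bzip28, and 0.0254% and 0.188% in bzip60. In bzip28bzip60 these shares were 0.0457% and 0.234%, and in ire1aire1b they were 0.0965% and 0.137%. At an unadjusted p below 0.05 there were 13, 15, 19 and 17 of the 60 genes in bzip28, bzip60, bzip28bzip60 and ire1aire1b, and 6.32%, 6.27%, 6.14% and 4.37% of all genes. For any difference among the 5 genotypes, by limma's moderated F test, 0 of the 60 and 0.345% of all genes were called. The median standard error of a difference was 0.17 on the log2 scale. The 4 comparisons share the WT libraries and are not independent of each other.

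CYP83A1 fell by 0.84 ± 0.17 (SE) on the log2 scale in bzip28bzip60, with an adjusted p of 0.0323 by limma, and all 4 libraries were below the 4 of WT. The call was lost when any single WT library was left out, with adjusted p between 0.056 and 0.117, and when bzip28bzip60 library 1, 2 or 4 was left out, with adjusted p between 0.103 and 0.150. It was also lost without the filter on low values, with an adjusted p of 0.0636 by limma. The same gene differed by -0.60 in bzip28, -0.65 in bzip60 and -0.57 in ire1aire1b, none of which was called, with adjusted p of 0.268, 0.179 and 0.404 by limma. BCAT4 differed by -0.92 ± 0.20 in bzip60 and -0.82 ± 0.20 in bzip28bzip60, with adjusted p of 0.07496 and 0.142 by limma. MAM1 differed by -0.69 ± 0.16 and -0.63 ± 0.16 in the same 2 genotypes, with adjusted p of 0.114 and 0.167 by limma. SEP3 differed by -0.69 ± 0.16 in bzip28bzip60 with an adjusted p of 0.0981 by limma.

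After rescaling, with 6 of the 60 genes called lower in bzip28bzip60 and 2 in bzip60, more of these differences passed. The 6 were CYP83A1, MAM1, CYP79F2, SEP3, BCAT4 and IMD1, and the 2 were MAM1 and BCAT4. Of all genes, 0.412% were then called lower in bzip28bzip60 and 0.315% in bzip60, and 0.178% and 0.147% higher. In bzip28, where none of the 60 was called, the shares were 0.229% lower and 0.0254% higher, and in ire1aire1b, also with none, they were 0.178% and 0.147%. MAM1 differed by -0.69 in bzip60 and -0.65 in bzip28bzip60 with adjusted p of 0.00668 and 0.0102 by limma. BCAT4 differed by -0.93 and -0.84 in the same order, with adjusted p of 0.0283 and 0.0434 by limma. In bzip60 and bzip28bzip60 the differences of the 60 genes moved by at most 0.0083 and 0.021 with rescaling, in ire1aire1b by at most 0.018 and in bzip28, whose scale shifted most, by up to 0.083, and the median standard error over the 60 genes went from 0.17 to 0.15. The F test then called 2 of the 60 genes, MAM1 and CYP79F2, with adjusted p of 0.0202 and 0.0272, and 0.534% of all genes.

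All 10 glucosinolate synthesis genes had a lower flight mean of log2(FPKM + 1) than WT in each of the 4 mutants as deposited, and after rescaling 9 of 10 did in bzip28 and 10 of 10 in the others. Their median difference was -0.24 in bzip28 and -0.54 in bzip60, and it was -0.57 in the bZIP double mutant and -0.41 in ire1aire1b, while the medians of the 50 other genes were -0.20, -0.04, -0.18 and -0.07 and those of all genes tested were -0.07, 0.00, 0.02 and -0.01. Over the whole list of 60, 54 genes were below WT in bzip28 and 39 in bzip60, and 44 were in the bZIP double mutant and 41 in ire1aire1b. Genotypes were not balanced over lanes in flight. With a lane term in the fit, the median of the 60 genes went from -0.21 to -0.13 in bzip28 and from -0.09 to -0.02 in bzip60. It stayed at -0.27 in the bZIP double mutant and went from -0.12 to -0.07 in ire1aire1b. Genes above WT then numbered 11, 27, 16 and 26, against 6, 21, 16 and 19 without the term. All 4 mutant libraries were below all 4 WT libraries for 7, 7, 5 and 7 of the 60 genes, and for 1.93%, 1.92%, 1.4% and 1.15% of all genes tested. Of the 10 glucosinolate genes this held for 2, 3, 3 and 5. Outside these 10, AT4G12870, a gene of other function, was separated in this way in all 4 mutants. It differed from WT by -0.69, -0.33, -0.59 and -0.41 in the same order, and none of these was called. In the other direction, all 4 ire1aire1b libraries of ELI3-1, a gene of defence and specialised metabolism, were above all 4 WT libraries. ELI3-1 differed there by 0.40 and was not called, with an adjusted p of 0.828 by limma. The share of all genes separated upward was not counted. The glucosinolate genes share the WT libraries and may vary together from library to library, which was not tested, so the counts are given without a test. CYP79F1, lower in all 4 mutants, is not among the 10 because of its mutant levels. WT flight library 1 held the highest WT value of 36 of the 60 genes, and WT flight library 3 the lowest of 42.

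**Figure D5:**
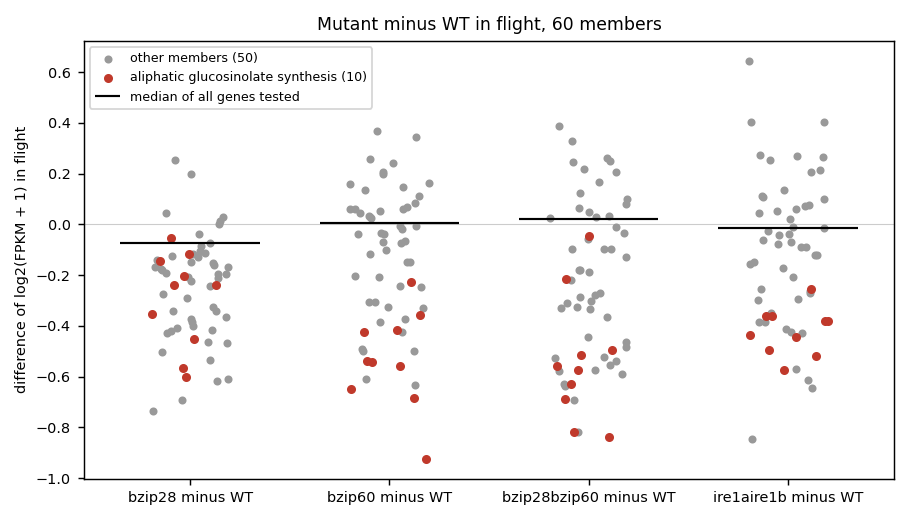
Difference of log2(FPKM + 1) in flight between each mutant and WT (vertical axis) for the 60 genes, with the 10 glucosinolate synthesis genes in red, the 50 others in grey and a black line at the median of all 19682 genes tested. All red points lie below 0 in the 4 comparisons, from -0.05 to -0.92, and the grey points lie on both sides of 0. After rescaling 1 red point of bzip28 lies above 0.

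Markers of several tissues were also higher in flight. All 5 shoot epidermis markers and all 4 mesophyll markers were called higher in flight on both scales, against 84.6% of all genes as deposited and 46.3% after rescaling. The summed level of the 5 epidermis markers was 543 to 982 FPKM in flight and 57.4 to 276 FPKM on the ground, and that of the 4 mesophyll markers was 1019 to 2104 against 131 to 564 FPKM. The epidermis gene PDF1, a protodermal marker, had 123 to 343 FPKM in flight and 3.18 to 24.1 FPKM on the ground, and its log2 difference was 4.39 ± 0.13 (SE), or 3.65 ± 0.10 after rescaling. Of the 5 root markers, 5 were higher as deposited and 4 after rescaling, with sums of 2162 to 4126 FPKM in flight and 472 to 3140 FPKM on the ground. The mesophyll sum was mostly RBCS1A, with a flight median of 1358 FPKM beside 1623 FPKM for the sum. The root sum was mostly PYK10, with 2840 beside 3022 FPKM. Medians of the lists after rescaling were log2 0.97 for epidermis, 1.21 for mesophyll and 0.46 for root, beside 0.09 for all genes tested. The part of these tissues in the levels of the 60 genes was not tested.

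The smaller marker lists had fewer genes with enough signal. Of the 4 root hair markers 2 were tested and both were higher as deposited, with 1 after rescaling, and their sums were 2.77 to 10.9 FPKM in flight and 0.5796 to 7.87 FPKM on the ground. For xylem 3 of 4 were tested, with 3 higher as deposited and 2 after rescaling, and sums of 31.3 to 61.03 against 6.298 to 39.4 FPKM. Guard cell markers gave 2 of 3 higher on both scales, with 1 lower after rescaling, and sums of 9.22 to 19.2 against 3.17 to 17.7 FPKM. None of the 4 seed storage markers was tested: their sum was at most 0.186 FPKM in flight and at most 5.0004 FPKM on the ground. Of 16 genes of chromatin silencing, such as the DNA methyltransferase gene MET1 and the Polycomb gene CLF, all 16 were higher as deposited and 11 were higher and 3 lower after rescaling. Beside all these counts, 84.6% of all genes were called higher and 5.57% lower as deposited, and 46.3% and 33.8% after rescaling.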

How the data were processed

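RNA was sequenced from 40 libraries of whole seedlings, 5 genotypes in flight and on the ground with 4 libraries each. Another 4 labelled samples served quality control only, per the labels, and have no column. The authors deposited 1 table of FPKM for 34133 loci. The submitters' processing notes name FastQC 0.11.5, cutadapt 1.8.1, Bowtie2 2.2.4, TopHat2 2.0.14, Cufflinks 1.3.0 and the build TAIR10, and the library kit keeps strand, per the labels' protocols. Read counts were not used here, so depth is unknown and precision rests on the spread between libraries. Names, gene order and upstream sequences come from RefSeq TAIR10.1, which matched 31510 loci; coordinates are of that assembly.

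The members and lists were chosen with earlier results of these data known. Values were tested as log2(FPKM + 1) in limma 3.58.1 under R 4.3.3 (lmFit, eBayes with trend, 15 residual degrees of freedom in flight), in genes with a mean of at least 1 FPKM. An adjusted p below 0.05 was called. Ground libraries were left out of the comparison of genotypes because values near 0 hardly vary on this scale. Listed zeros were kept. Genes named with values in every library are the 12 with the highest flight mean, those within 3 loci of another member or sharing a family name, and called genes, up to 3 per direction. For the others named, chosen after their values were seen, ranges, means or differences are given. On simulated data for bzip60 in flight (19682 genes), 93 of 100 genes changed by log2 1 and 99 of 100 changed by 2 were recovered, with 5 false calls. The changed genes were drawn only from those with a mean log2(FPKM + 1) above 3. Both sizes were put into 1 simulated set with independent normal noise. These shares check the fit and do not give its power for the members. Figures used Python 3.11.15 with matplotlib 3.10.9. The alternatives were median-ratio rescaling, other pseudocounts and filters, all 40 libraries in 1 fit, a lane term, a replicate term and leaving out each library.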

Additional observations from a re-analysis of the deposited data

Results flagged for a closer look

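Among the members named with values in every library, 9 of the 185 groups of 4 libraries held 1 library far from the other 3, by Dixon's test at the 95% level. Chance alone flags about 1 group in 20. In flight, RBCS1B had 86.0 FPKM in 1 bzip28bzip60 library against 48.2 to 53.6 FPKM in the others. ESM1 had 61.5 FPKM in the same library, number 3, against 34.7 to 36.1 FPKM. IMS2 had 45.8 FPKM in WT library 3 against 60.3 to 61.0 FPKM, and AT4G15680 had 8.26 FPKM in bzip28 library 2 against 13.8 to 14.5 FPKM. On the ground all such values were below 1 FPKM. RBCS1B had 0.118 FPKM in bzip28 library 1 against 0.482 to 0.492 FPKM, MAM1 had 0.757 FPKM in bzip28 library 3 against 0.05004 to 0.158 FPKM, and BCAT4 had 0.367 FPKM in bzip60 library 1 against 0.0902 to 0.135 FPKM. AT3G16670 had 0.0658 FPKM in WT library 1 and SEP3 had 0.0415 FPKM in bzip28 library 4, where the other 3 libraries were listed at 0.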

How the results depend on the processing

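The number of members moved with the thresholds and the scale: 37 after rescaling, 31 with a flight minimum of 10 FPKM, 20 with a ground limit of 0.5 and 253 with a limit of 2, while medians in place of means gave 66, of which 55 were shared. Leaving out 1 library gave 54 to 64. Members called lower than WT in flight were 2 in bzip60 and 6 in bzip28bzip60 after rescaling, 1 and 3 with all 40 libraries in the fit, and 0 in bzip28bzip60 with no filter. Any genotype difference was called for 2 members after rescaling and 2 with all 40 libraries. Leaving out 1 flight library gave 0 to 3 members lower in bzip60, 0 to 5 in bzip28bzip60, 0 to 1 in ire1aire1b and 0 to 2 for any difference. The highest of these came without bzip60 library 2 (3) and without bzip28bzip60 library 3 (5, 1 and 2).

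Counts over all genes moved as well. After rescaling there were 29 higher and 62 lower in bzip60, 35 and 81 in bzip28bzip60, 29 higher in ire1aire1b and 105 for any difference, against 5, 37, 9, 46, 19 and 68. A filter at a mean of 5 FPKM, with fewer genes tested, gave 2 higher and 23 lower in bzip28, 3 and 18 in bzip60, 2 and 23 in bzip28bzip60, 6 and 16 in ire1aire1b and 31 for any difference. All 40 libraries gave 2 higher and 29 lower in bzip28 and 3 higher in bzip28bzip60, a lane term gave 30 lower in bzip28, and a pseudocount of 0.1 gave 3 higher in bzip60. Leaving out 1 library gave 30 to 78 lower in bzip28, 2 to 6 higher and 21 to 44 lower in bzip60, 4 to 10 and 22 to 50 in bzip28bzip60 and 10 to 20 higher in ire1aire1b. List genes called lower in flight went from 2 to 7 after rescaling. The cause of these shifts was not tested where none is named. Among the single genes followed through every alternative, which were a chosen set, no difference changed sign. Other list genes did change sign between flight and ground with rescaling. Among the chromatin silencing genes, SWN went from log2 0.48 to -0.27 and LHP1 from 0.45 to -0.27.

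Replicate numbers were not taken as pairs: deviations of the same number in 2 groups correlated from -0.20 to 0.29, above 0.1 in 31 of 180 pairs. Unlike numbers were not compared, so this does not exclude pairing. The sample titles also carry a letter, A to D, that no label explains. Plates were held in 4 canisters, and whether the letter names the canister is unknown. In flight it follows the replicate number in every genotype except bzip28bzip60. A shared effect of the letter was not tested. With the number as a replicate block, 1 member was lower in bzip28bzip60, CYP83A1 by -0.84 with an adjusted p of 0.0284, and no other member was called. Precision is limited by 4 libraries a group and 1 run of each condition.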
